A study of Homo sapiens with 6 samples.

Results

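CYP2J2 and 9 further genes of eicosanoid metabolism (EPHX1, EPHX2, PTGS1, PTGES, PTGES2, PTGES3, ALOX5, ALOX15B and LTA4H) were followed in MDA-MB-231 cells that carried a SUMO-binding mutant of DAXX or wild-type DAXX. The genes were chosen by symbol, with the difference between these groups already known, and CYP2J2 was picked because it was among the few genes called there. All 10 of the 10 symbols were measured, out of 22465 genes in all, each by 1 transcript cluster (the array's unit for a gene locus). The values of the comparison below are therefore a description of these genes. Calls given for them come from the fit across all genes and add no evidence.

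MDA-MB-231 is an established triple-negative breast cancer line. In DSM OE cells it stably expressed a DAXX cDNA whose SUMO-interacting motifs are disabled, and in DAXX OE cells the wild-type DAXX cDNA. DAXX deposits histone H3 variants and modulates transcription factors, and the disabled motifs are the stretches through which it binds SUMO, a ubiquitin-like modifier of proteins. Both groups shared lentiviral transduction, puromycin selection at 2 µg/mL, the cell's own DAXX gene, and 24 h of culture in complete medium before RNA was taken. Total RNA (200 ng) was labelled and hybridised to Affymetrix Human Transcriptome Array 2.0 chips, with 3 arrays in each of the 2 groups. The comparison asks which transcripts depend on the SUMO-binding motifs when DAXX is overexpressed. The arrays are called biological replicates, but each construct was represented by 1 selected population, so the spread is that between cultures and not between independent transductions. Cells with an empty vector or with DAXX knockdown were not analysed here.

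Eicosanoids are signalling lipids made from arachidonic acid, a fatty acid that phospholipases release from membranes. Cyclooxygenases turn it into prostaglandin H2, which terminal synthases convert to prostaglandin E2 and other prostanoids. Lipoxygenases open the route to leukotrienes and hydroxy fatty acids, and cytochrome P450 epoxygenases such as CYP2J2 make epoxyeicosatrienoic acids, which epoxide hydrolases convert to diols. CYP2J2 is best known as an epoxygenase of the heart and vessel wall, and its products have been studied in tumour cells.

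DAXX, the gene introduced in both groups, read 9.31, 9.36 and 9.36 in DSM OE, against 8.68, 8.95 and 8.94 in DAXX OE (log2 signal). This signal is that of the brightest of 6 DAXX clusters, and it sums the cell's own and the introduced transcripts. It was 0.49 (SE 0.10) higher in DSM OE on the log2 scale, or 1.40-fold, and the groups did not overlap. The difference did not pass with 6 arrays (limma, adjusted p = 0.416) and passed without DAXX OE replicate 1 (0.40, SE 0.04, adjusted p = 0.0144). The part of this higher DAXX signal in the differences below was not tested. For protein rather than RNA, the paper reported similar wild-type and mutant DAXX levels by immunoblot, in extracts of tumours grown from such cells. Of markers listed for the line, VIM, CD44, AXL, CAV1 and ZEB1 averaged 9.42 to 11.87 in the groups. Of those listed as low in it, ESR1, PGR, CDH1 and the leukocyte gene PTPRC averaged 3.57 to 5.78, whereas GATA3 averaged 6.94 in DSM OE and 6.87 in DAXX OE, and COL1A1 7.34 in DSM OE and 7.24 in DAXX OE, above the median of all genes (6.72 to 6.75 per array). ERBB2, also listed as low, had no cluster with a single gene symbol and was not measured. Levels of different probes are not on 1 scale, so the marker values are no proof of identity. One array, DAXX OE replicate 1, differed from the other 5. Across genes (not independent replicates) its Pearson correlation with each of them was 0.973 to 0.980, where the 5 reached 0.996 to 0.998 between themselves. The SD of its signals over genes was 1.63, against 1.82 to 1.85 on the other 5, so the deposited arrays do not share 1 distribution. Differences that this array moved by over 1.5 times or turned in sign are therefore also given without it.

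The sequences around the transcript start are shown first for CYP2J2, the gene with the largest difference among the 10, and for PTGES and LTA4H, the enzyme genes next to it in size of the difference. Each run covers 250 bases before and 50 after the start, is written 5′ to 3′ on the gene's strand, and comes from RefSeq (build GRCh38.p14). Capitals mark the GC box, GGGCGG on either strand, the sequence bound by Sp1-type factors. The CYP2J2 window lies on chromosome 1 (chr1:59926724-59927023, minus strand), the PTGES window on chromosome 9 (chr9:129752993-129753292, minus strand) and the LTA4H window on chromosome 12 (chr12:96035538-96035837, minus strand).
CYP2J2: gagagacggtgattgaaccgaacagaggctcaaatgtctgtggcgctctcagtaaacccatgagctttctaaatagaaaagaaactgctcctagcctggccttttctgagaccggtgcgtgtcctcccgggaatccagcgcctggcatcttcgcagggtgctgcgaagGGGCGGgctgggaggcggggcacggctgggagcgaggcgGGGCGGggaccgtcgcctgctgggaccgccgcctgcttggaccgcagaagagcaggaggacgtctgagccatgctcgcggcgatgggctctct
PTGES: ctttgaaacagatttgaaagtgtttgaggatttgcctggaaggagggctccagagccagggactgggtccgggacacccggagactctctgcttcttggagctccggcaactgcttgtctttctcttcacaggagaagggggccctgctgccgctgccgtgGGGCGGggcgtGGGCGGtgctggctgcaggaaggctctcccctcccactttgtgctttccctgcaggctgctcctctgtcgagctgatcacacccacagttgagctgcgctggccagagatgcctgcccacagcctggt
LTA4H: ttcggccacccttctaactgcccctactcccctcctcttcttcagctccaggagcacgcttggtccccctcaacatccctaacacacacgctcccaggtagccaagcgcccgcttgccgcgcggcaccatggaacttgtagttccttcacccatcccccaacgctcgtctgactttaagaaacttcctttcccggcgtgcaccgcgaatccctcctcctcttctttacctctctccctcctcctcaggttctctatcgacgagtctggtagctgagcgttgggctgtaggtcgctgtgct

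The CYP2J2 window held 2 GC boxes, which began 82 and 43 bases before the start, and 24 CpG dinucleotides, a number that 33.9% of the 35116 RefSeq promoter windows reached. The PTGES window also held 2 GC boxes, placed close together, with 10 CpG, and the LTA4H window held 0 GC boxes and 18 CpG. A GC box occurred in 45.0% of all windows. The AP-1 motif TGANTCA (7.71% of all windows) and the sterol regulatory element core TCACNCCAC (1.13%), both read on either strand, had 0 matches in the 12 windows matched to 7 of the 10 genes. The E-box CACGTG (7.26% of all windows) had 1 match, in a PTGES2 window. A match or its absence in these letters says nothing of whether a factor binds there.

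The 10 genes split by level into those near the array's background and those far above it. RMA signals of different probes are not on 1 scale of abundance, so genes are not ranked by level, and each was set only against the 23 background probe sets of the same arrays, whose median was 4.26 to 4.46 (log2). CYP2J2 lay 0.37 to 1.49 above that median and EPHX2 0.85 to 1.48, with 9 to 11 and 9 to 10 of the 23 background sets brighter than them. PTGS1, ALOX5 and ALOX15B lay 1.41 to 2.42 above it. PTGES2 and EPHX1 lay 3.42 to 3.87 above, and PTGES, LTA4H and PTGES3 4.85 to 5.92 above. CYP2J2, EPHX2, PTGS1, ALOX5 and ALOX15B are thus dim on these arrays, and array signals near background are known to understate changes.

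CYP2J2 read higher in DSM OE than in DAXX OE. Its log2 signal was 5.84, 5.86 and 5.88 in DSM OE, against 5.13, 4.96 and 4.83 in DAXX OE. The 3 DSM OE arrays lay within 0.042 of each other, and the lowest of them stood 0.71 above the highest DAXX OE array. The means were 5.86 ± 0.02 in DSM OE and 4.97 ± 0.15 in DAXX OE (SD, n = 3 each), a log2 difference of 0.89 (SE 0.10) or 1.85-fold. In RNA from a whole culture, more RNA in each cell and more cells that express the gene cannot be told apart. Without DAXX OE replicate 1, which had the highest DAXX OE value, the difference was 0.96 (SE 0.05), and after cyclic loess, which removes level-dependent trends between arrays, it was 0.99 (SE 0.06).

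**Figure D1:**
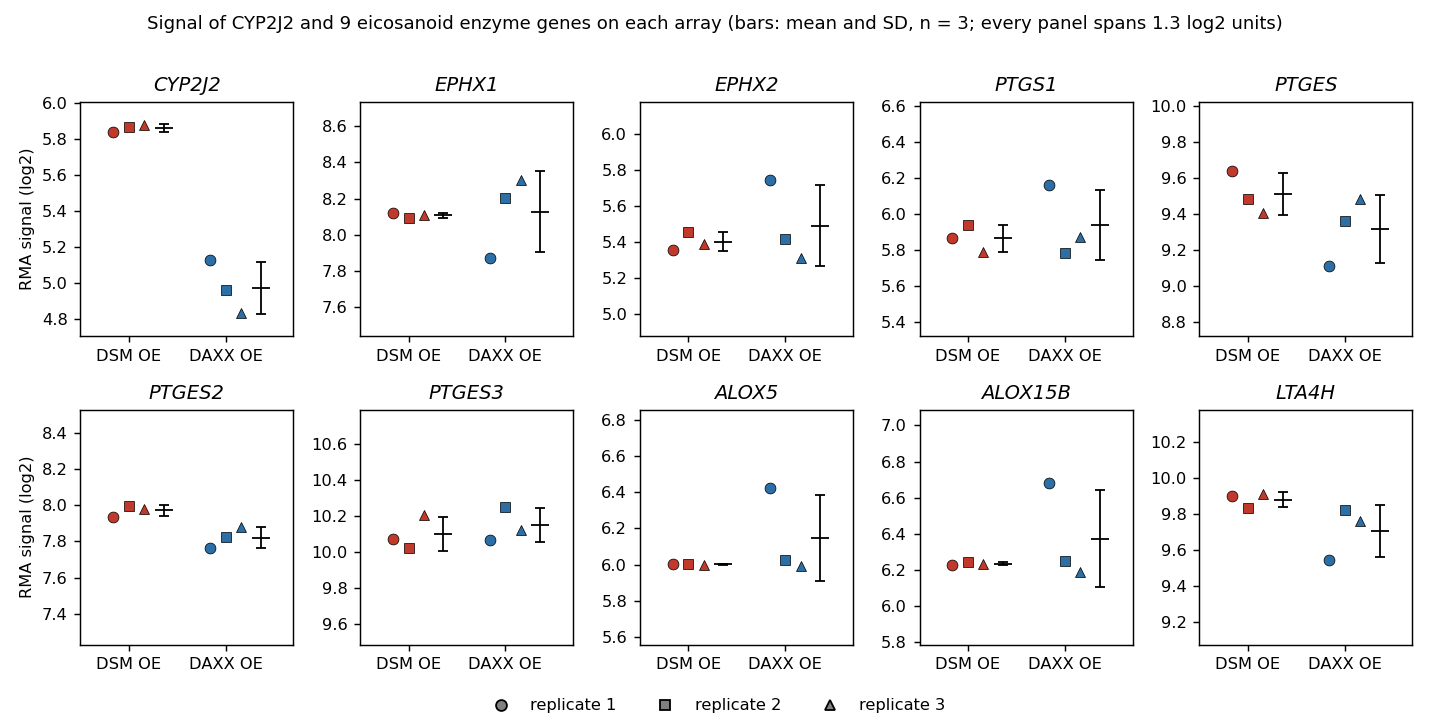
Log2 RMA signal of each of the 10 genes on the 6 arrays (DSM OE in red, DAXX OE in blue; symbols mark replicate numbers; bars show the mean and SD, n = 3), with every vertical axis spanning the same range of log2 units. CYP2J2 shows the widest gap between groups, with DSM OE at 5.84 to 5.88 and DAXX OE at 4.83 to 5.13, while in ALOX5, ALOX15B, EPHX2 and PTGS1 DAXX OE replicate 1 alone reads high.

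CYP2J2 was the single gene of the 10 called in the fit across all genes (limma, Benjamini-Hochberg adjusted p under 0.05), as 1 of 10 members against 0.0579% of all genes called as higher in DSM OE. It stood at the edge of that call: it ranked 14 by p among 14 called genes, and 13 by size of the difference among the 13 that were higher. The next gene inside was FZD3, a Frizzled receptor gene (log2 difference 0.96), and the nearest outside were TMEM47 (-1.65) and ANXA10 (0.77). The call was kept without DAXX OE replicate 1, where 0.872% of genes were called as higher, but ended when any other single array was left out, with log2 differences of 0.90, 0.88 and 0.88 without DSM OE replicates 1, 2 and 3 and of 0.88 and 0.82 without DAXX OE replicates 2 and 3. Since the gene was chosen for this contrast, these counts describe how it was picked and add no evidence.

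The epoxide hydrolases, which act on the products of CYP2J2, showed smaller differences. EPHX2, the soluble epoxide hydrolase and main enzyme of epoxyeicosatrienoic acid breakdown, read 5.36, 5.46 and 5.39 in DSM OE, against 5.74, 5.42 and 5.31 in DAXX OE. The groups overlapped, and DAXX OE replicate 1 alone read high. The log2 difference was -0.089 (SE 0.12), or 0.037 (SE 0.05) without that array. EPHX1, the microsomal hydrolase of xenobiotic epoxides, read 8.12, 8.09 and 8.11 in DSM OE, against 7.87, 8.20 and 8.30 in DAXX OE. Here DAXX OE replicate 1 lay below all 3 DSM OE arrays and the other DAXX OE arrays lay above them. The log2 difference of -0.020 (SE 0.12) became -0.15 (SE 0.05) without that array and -0.15 (SE 0.04) after cyclic loess, but was 0.019 and 0.068 without DAXX OE replicate 2 and replicate 3.

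Among the prostaglandin genes, PTGS1 encodes the constitutive cyclooxygenase COX-1. It read 5.87, 5.94 and 5.79 in DSM OE, against 6.16, 5.79 and 5.87 in DAXX OE, so that the groups overlapped and the highest value was again DAXX OE replicate 1. The log2 difference was -0.075 (SE 0.12), or 0.035 (SE 0.06) without that array.

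The 3 prostaglandin E synthase genes, which share a name but encode unrelated proteins, are taken in turn. PTGES, the inducible microsomal synthase that couples to cyclooxygenases, read 9.64, 9.48 and 9.41 in DSM OE, against 9.11, 9.36 and 9.48 in DAXX OE. The groups overlapped, and the log2 difference of 0.19 (SE 0.12) was 0.089 (SE 0.08) without DAXX OE replicate 1, its lowest array. PTGES2, the membrane-associated synthase, read 7.94, 8.00 and 7.98 in DSM OE, against 7.76, 7.83 and 7.88 in DAXX OE. The DSM OE values exceeded every DAXX OE value, with a log2 difference of 0.15 (SE 0.08), although cyclic loess and quantile normalization brought it to 0.026 and 0.029 (SE 0.08 and 0.07). PTGES3, which encodes the HSP90 co-chaperone p23 and also has synthase activity, read 10.07, 10.02 and 10.21 in DSM OE, against 10.07, 10.25 and 10.12 in DAXX OE. Its groups overlapped with a log2 difference of -0.047 (SE 0.09), or -0.087 (SE 0.07) without DAXX OE replicate 1.

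The lipoxygenase genes ALOX5, which starts leukotriene synthesis, and ALOX15B, which makes a hydroxy fatty acid at the other end of arachidonic acid, both gave nearly equal values on the 3 DSM OE arrays. ALOX5 read 6.00, 6.00 and 6.00 in DSM OE (SD 0.0031), against 6.42, 6.03 and 5.99 in DAXX OE. ALOX15B read 6.23, 6.24 and 6.23 in DSM OE (SD 0.0076), against 6.68, 6.25 and 6.19 in DAXX OE. In both genes 5 of the 6 arrays lay close together and DAXX OE replicate 1 read higher. The log2 differences of -0.15 (SE 0.13) for ALOX5 and -0.14 (SE 0.14) for ALOX15B became -0.0080 (SE 0.04) and 0.015 (SE 0.04) without it.

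LTA4H, the hydrolase that makes leukotriene B4, read 9.90, 9.83 and 9.91 in DSM OE, against 9.54, 9.82 and 9.76 in DAXX OE. The groups did not overlap, but the lowest DSM OE value (replicate 2) exceeded the highest DAXX OE value (replicate 2) by 0.012. The log2 difference was 0.17 (SE 0.10), or 0.091 (SE 0.05) without DAXX OE replicate 1.

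**Figure D2:**
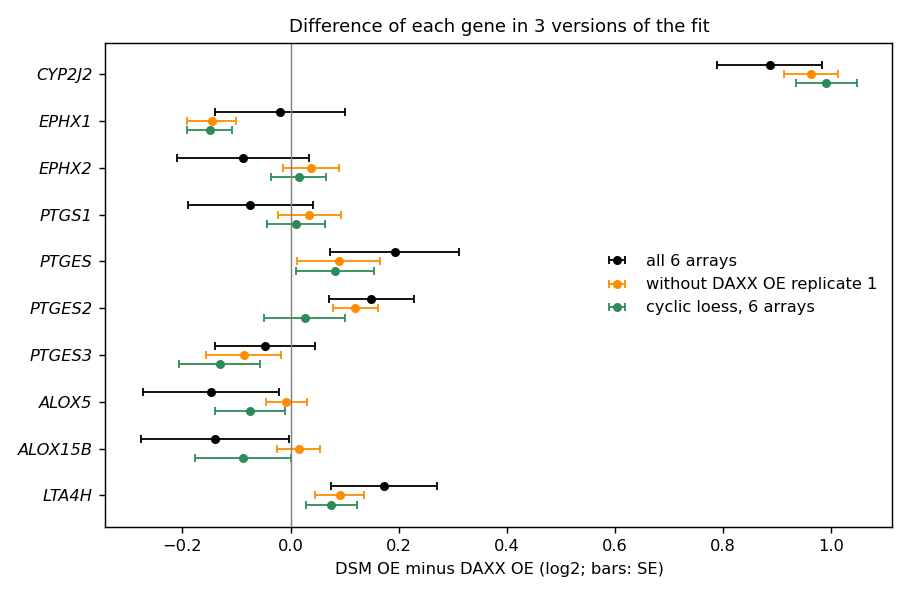
DSM OE minus DAXX OE for each of the 10 genes (log2; points with SE bars) with all 6 arrays, without DAXX OE replicate 1, and after cyclic loess. CYP2J2 lies at 0.89 to 0.99 in the 3 versions, whereas the other 9 genes lie between -0.15 and 0.19.

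The median difference of the 10 genes was -0.033 (log2), against 0.0062 over all 22465 genes. With 6 arrays 4 of the 10 differences were positive and 6 negative, and without DAXX OE replicate 1 the count was 7 positive and 3 negative with a median of 0.036, so the list as a whole has no settled direction. Groups did not overlap in 3 of the 10 (CYP2J2, PTGES2 and LTA4H), all higher in DSM OE, where 13.7% of all genes had non-overlapping groups in that direction and 5.5% in the other (0 of the 10). At the study's thresholds, a fold beyond 1.3 with an unadjusted p under 0.05, 1 of the 10 was called, CYP2J2, against 2.25% of all genes.

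DAXX OE replicate 1 read high in the dim genes and low in the brighter ones, the same sign as the median of all genes of like level. Its signal minus the mean of the other 2 DAXX OE arrays was 0.23 in CYP2J2, 0.38 in EPHX2, 0.33 in PTGS1, 0.42 in ALOX5 and 0.47 in ALOX15B, all dim genes. The median deviation of genes in the same level bins was 0.31 (CYP2J2 and EPHX2) and 0.25 (the other 3). In the brighter genes it was -0.38 in EPHX1, -0.31 in PTGES, -0.25 in LTA4H, -0.12 in PTGES3 and -0.090 in PTGES2, where genes of like level had medians of -0.38 (EPHX1 and PTGES2) and -0.28 (the other 3). The CYP2J2 deviation lay within the quartiles of its level bin (0.12 to 0.49). Outside the quartiles of their bins were PTGES2 (-0.53 to -0.21), PTGES3 (-0.36 to -0.20) and ALOX15B (0.027 to 0.42). The CYP2J2 difference between groups was 0.89 with this array and 0.96 without it. The part of this array in the differences was not tested.

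**Figure D3:**
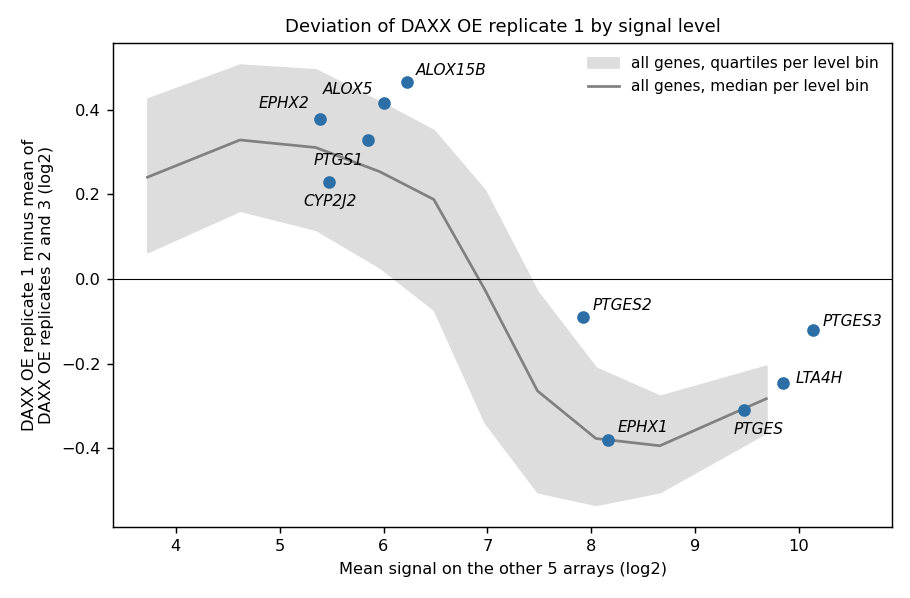
Deviation of DAXX OE replicate 1 from the mean of DAXX OE replicates 2 and 3 (log2) against the mean signal on the other 5 arrays (log2), for the 10 genes (points) over the median and quartiles of all genes in 10 level bins. Dim members read high on this array, up to 0.47 in ALOX15B, and bright ones read low, down to -0.38 in EPHX1.

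Of 83 other genes of eicosanoid metabolism, listed by role, 74 were measured by a cluster with 1 symbol. In limma over all genes 0 of the 74 passed the threshold with 6 arrays, against 0.0623% of all genes in either direction. At an unadjusted p under 0.05 there were 7 of the 74, against 5.16% of all genes, and 3 also passed the fold of 1.3 (CYP2S1, CBR1 and AKR1C3), against 2.25% of all genes. Without DAXX OE replicate 1 there were 12 of the 74 at an unadjusted p under 0.05, against 3381 of all 22465 genes (1159 with 6 arrays). In that fit 1 of the 74 also passed the fold (CYP2S1), against 240 of all 22465 genes (505 with 6 arrays). The background thus moved with the array too. The median difference was -0.020, with 36 positive and 38 negative, and -0.00020 without that array, with 37 of each sign. By role the median was 0.050 for 16 genes of arachidonate release and recycling (0.014 without DAXX OE replicate 1), 0.12 for 9 prostanoid synthases and reductases (-0.0025) and 0.038 for 11 lipoxygenase and leukotriene enzymes (0.0098). It was -0.10 for 12 arachidonate cytochromes P450 (-0.025 without that array), 0.17 for 2 other epoxide hydrolases (0.084), 0.20 for 7 genes of inactivation and transport (0.0022) and -0.086 for 17 receptors (-0.021). All 7 medians thus lay nearer to 0 without that array.

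CYP2S1, another P450 that acts on fatty acids and prostaglandin intermediates, was the gene of these 74 with the highest difference. It read 7.58, 7.60 and 7.46 in DSM OE, against 7.21, 7.11 and 7.04 in DAXX OE. The groups did not overlap, with a log2 difference of 0.43 (SE 0.09) that did not pass with 6 arrays (limma, adjusted p = 0.426). It was the 1 gene of the 74 that passed without DAXX OE replicate 1 (log2 difference 0.48, SE 0.06, adjusted p = 0.0241), where 1.25% of all genes passed in either direction. After cyclic loess the difference was 0.35 (SE 0.10).

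The rest of the CYP2 family differed less. Of 12 measured relatives of CYP2J2, 9 had negative and 3 positive differences (median -0.091), and without DAXX OE replicate 1 the count turned to 3 negative and 9 positive (median 0.020), so the family has no settled direction. CYP2S1 was the one whose groups did not overlap over the 6 arrays, where 13.7% of all genes were higher and 5.5% lower without overlap. CYP2U1, an extrahepatic fatty acid hydroxylase, differed by 0.018 (SE 0.10), or -0.077 (SE 0.05) without that array. CYP2R1, the vitamin D 25-hydroxylase, which was looked at after its value was seen, differed by 0.25 (SE 0.19), and by 0.029 (SE 0.06) without DAXX OE replicate 1. CYP1B1, a P450 of estrogen and xenobiotic metabolism, differed by 0.00040 (SE 0.08), or -0.030 (SE 0.04) without that array, among the P450 genes outside the family.

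Upstream of CYP2J2, the cytosolic phospholipase gene PLA2G4A read 7.12, 6.89 and 6.97 in DSM OE, against 6.34, 7.11 and 7.11 in DAXX OE, where replicate 1 lay below the rest. Its log2 difference was 0.15 (SE 0.21), and -0.11 (SE 0.07) without DAXX OE replicate 1. The calcium-independent phospholipase gene PLA2G6 differed by -0.072 (SE 0.10), or 0.011 (SE 0.04) without it. MGLL, the lipase that frees arachidonate from an endocannabinoid, differed by -0.036 (SE 0.11), or -0.14 (SE 0.06) without it. None of the 3 passed the threshold with 6 arrays (limma, adjusted p from 0.729 to 0.874) or without that array (adjusted p from 0.369 to 0.950).

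PTGS2, the inducible cyclooxygenase COX-2, averaged 7.48 ± 0.07 in DSM OE and 7.17 ± 0.43 in DAXX OE (SD, n = 3 each), a log2 difference of 0.31 (SE 0.20) that was 0.067 without DAXX OE replicate 1. CBR1, a carbonyl reductase that acts on prostaglandin E2, averaged 7.39 ± 0.0027 in DSM OE and 6.98 ± 0.18 in DAXX OE, and its groups did not overlap. Its difference was 0.41 (SE 0.11, limma adjusted p = 0.663), or 0.32 without DAXX OE replicate 1 (adjusted p = 0.0820). AKR1C3, which reduces prostaglandin D2 and steroids, gave 0.39 (SE 0.13, adjusted p = 0.682), or 0.26 without that array (adjusted p = 0.158). The thromboxane synthase gene TBXAS1 differed by -0.068 (SE 0.08), or -0.044 (SE 0.04) without it. After cyclic loess CBR1 differed by 0.35 and AKR1C3 by 0.43. Groups also did not overlap in AKR1C3 (higher in DSM OE) and TBXAS1 (lower). Among the 74 genes 10 were higher and 7 lower without overlap, against 13.7% and 5.5% of all genes.

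For the leukotriene route, ALOX5AP, which presents arachidonate to the ALOX5 enzyme, differed by 0.093 (SE 0.12), and by 0.20 (SE 0.07) without DAXX OE replicate 1. LTC4S, which makes leukotriene C4, differed by 0.057 (SE 0.09), or 0.0032 without that array. EPHX4, an epoxide hydrolase relative, differed by 0.38 (SE 0.21), or 0.11 (SE 0.05) without it. Of the inactivating genes, HPGD, which oxidises prostaglandins, differed by -0.0076 (SE 0.08), or -0.039 (SE 0.05) without it. PTGR1, a reductase of leukotriene and prostaglandin metabolites, differed by -0.032 (SE 0.14), and by -0.20 (SE 0.04) without it, the lowest value of the 74 genes there. The efflux transporter gene ABCC4 differed by 0.20 (SE 0.17), or 0.0022 (SE 0.05) without it. None of these 6 passed the threshold with 6 arrays (limma, adjusted p from 0.682 to 0.965) or without DAXX OE replicate 1 (adjusted p from 0.111 to 0.992).

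The prostaglandin E2 receptor genes PTGER2 and PTGER4 differed by 0.041 (SE 0.10) and 0.20 (SE 0.18), the leukotriene B4 receptor gene LTB4R by 0.12 (SE 0.09), and PPARG, a nuclear receptor that binds fatty acid derivatives, by 0.15 (SE 0.14). Without DAXX OE replicate 1 PTGER2 gave 0.13 (SE 0.05), PTGER4 -0.016 (SE 0.05), LTB4R 0.061 (SE 0.06) and PPARG -0.0047 (SE 0.05). None of these 4 passed the threshold with 6 arrays (limma, adjusted p from 0.682 to 0.844) or without that array (adjusted p from 0.340 to 0.983).

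**Figure D4:**
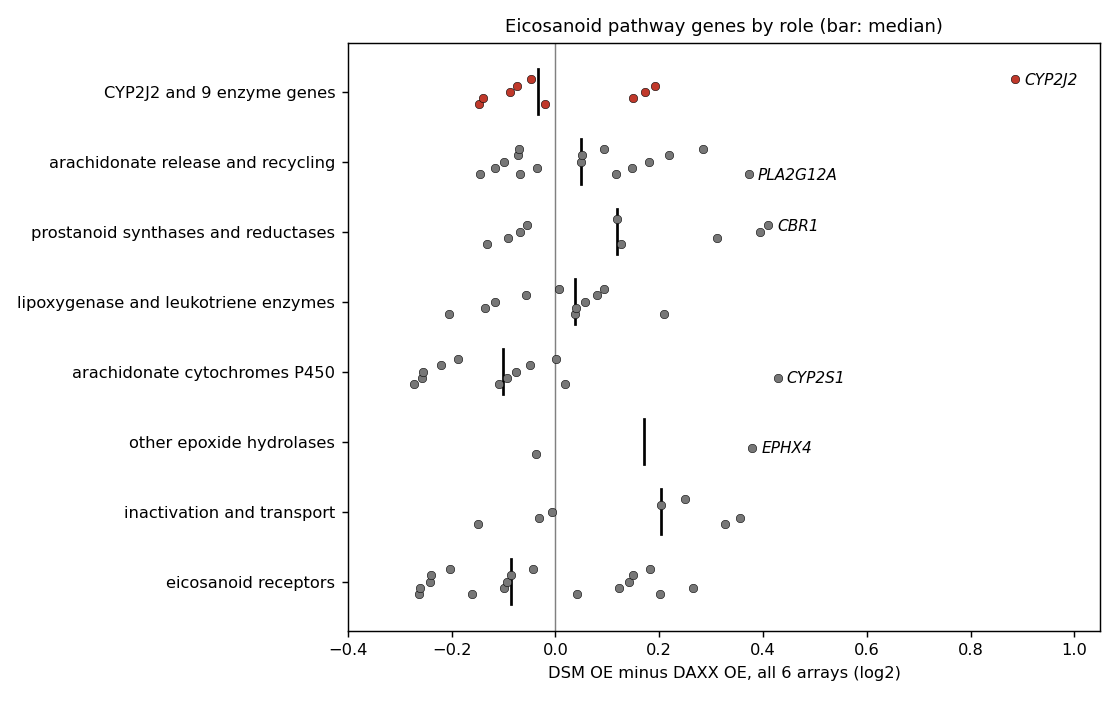
DSM OE minus DAXX OE with all 6 arrays (log2) for CYP2J2 and the 9 enzyme genes (red) and for 74 other eicosanoid genes grouped by role (grey), with a bar at each group's median. CYP2J2 lies at 0.89, and the other 74 genes lie between -0.27 (CYP4A22) and 0.43 (CYP2S1).

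The genes beside CYP2J2 on chromosome 1 were compared next, taking the 3 nearest measured named genes on each side in RefSeq order. HOOK1, the neighbour on the lower-coordinate side and the gene of a microtubule-linked cargo adaptor, read 5.11, 5.04 and 4.97 in DSM OE, against 4.52, 4.40 and 4.42 in DAXX OE. The lowest DSM OE array exceeded the highest DAXX OE array by 0.45. The log2 difference was 0.59 (SE 0.08), which did not pass with 6 arrays (limma, adjusted p = 0.131) and passed without DAXX OE replicate 1 (adjusted p = 0.00701). HOOK1 has a dim signal, as CYP2J2 does.

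The other 5 neighbours differed less than HOOK1. On the HOOK1 side FGGY, a carbohydrate kinase gene, differed by -0.055 (SE 0.07) and the RNA gene HSD52 by -0.12 (SE 0.08). On the other side NFIA, a transcription factor gene, differed by 0.23 (SE 0.12), TM2D1 by 0.16 (SE 0.17) and PATJ, a cell polarity scaffold gene, by 0.26 (SE 0.10). Without DAXX OE replicate 1 NFIA differed by 0.11 (SE 0.05), TM2D1 by -0.052 (SE 0.04) and PATJ by 0.17 (SE 0.04). None of these 5 passed the threshold with 6 arrays (limma, adjusted p from 0.682 to 0.733) or without DAXX OE replicate 1 (adjusted p from 0.150 to 0.649). Over the 6 arrays the groups did not overlap in HOOK1, NFIA and PATJ (higher in DSM OE) and in FGGY (lower), and overlapped in HSD52 and TM2D1. Of all genes, 13.7% were higher and 5.5% lower without overlap. Whether CYP2J2 and HOOK1 moved for a common reason was not tested.

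Genes with a profile like that of CYP2J2 were found by the root mean square difference of the 6 array values after each gene's own mean was subtracted. The 5 closest were ZSWIM5 (0.093 log2 units), TC2N (0.10), EPB41L4A (0.11), FZD3 (0.12) and SLFN13 (0.13). All 5 had DSM OE arrays higher than every DAXX OE array, and log2 differences of 0.67 to 1.02. TC2N, EPB41L4A and FZD3 were tighter among DAXX OE arrays (SD 0.012 to 0.069) than CYP2J2 (SD 0.15), whereas ZSWIM5 (SD 0.20) and SLFN13 (SD 0.17) varied as much as CYP2J2. All 5, like CYP2J2, had their highest DAXX OE value on replicate 1. The 5 genes were selected for likeness of profile, over 6 arrays and 2 groups, and none is a gene of the eicosanoid lists.

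**Figure D5:**
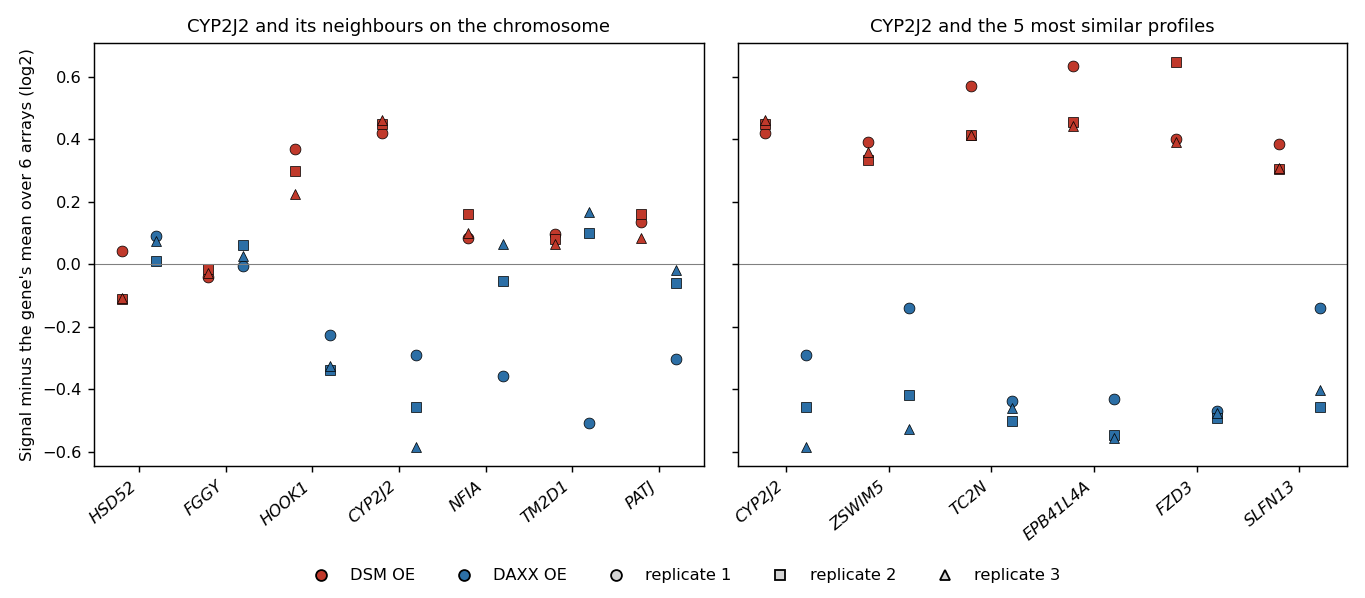
Signal of each gene minus its own mean over the 6 arrays (log2; DSM OE in red, DAXX OE in blue, symbols mark replicate numbers), on the left for CYP2J2 and 3 neighbours on each side in chromosome order, on the right for CYP2J2 and the 5 genes of most similar profile. HOOK1 is the neighbour with the widest gap between groups (log2 difference 0.59), and the 5 similar genes differ by 0.67 to 1.02.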

How the data were processed

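The authors deposited log2 signals made by robust multi-array averaging (RMA: background correction, quantile normalization and median polish per transcript cluster). Affymetrix Expression Console 1.3 is named in the submitters' processing notes. The methods describe ComBat for arrays collected at different times, without stating whether these 6 were among them. Which arrays were normalized together is not stated either. Array signals have no read depth, so that precision is set by having 3 arrays a group. Of 70523 rows, 23781 clusters carried 1 gene symbol, and the brightest cluster over the 6 arrays stood for each gene, with no filter on dim signals (22465 genes). DSM OE was compared with DAXX OE in limma 3.58.1 (R 4.3.3; lmFit and eBayes, 2-sided), without a replicate block, with Benjamini-Hochberg adjustment over all genes and a threshold of 0.05. The fit was tested on simulated data. The alternatives were a replicate block, leaving out each array, a filter on dim genes, quantile normalization, median centring, cyclic loess, trended and robust moderation, array weights, other thresholds and the mean of a gene's clusters. Groups came from the sample labels.

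Named genes were the 10 members, the listed pathway genes given above, any pathway gene past the threshold, the 3 nearest neighbours of CYP2J2 on each side, and its 5 most similar profiles, leaving out small RNAs, uncharacterised loci and open reading frame symbols. Of the listed pathway genes AKR1B1 had no cluster with a single symbol. CYP2R1, CYP4A22 and the genes just outside the call (TMEM47 and ANXA10) were named after their values were seen. Members, lists and rules were chosen with earlier results of these data known.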

Additional observations from a re-analysis of the deposited data

How the results depend on the processing

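CYP2J2 was higher in DSM OE in all 12 alternatives that gave its difference, by 0.82 to 0.99 (log2). These refits draw on the same 6 arrays, for a gene chosen for this contrast, so their agreement adds no evidence. The replicate block (balanced groups) and the mean of a gene's clusters (1 cluster for CYP2J2) could not change the difference. The CYP2J2 signal lies below the median level, so the gene dropped out of the fit restricted to genes above that level. It was not called under trended and robust moderation, where 13 genes were. Among all genes, 14 were called with 6 arrays (13 higher, 1 lower). With the replicate number as a block 40 were called (32 higher, 8 lower), after cyclic loess 25 (20 higher, 5 lower), among genes above the median level 5, at an adjusted p under 0.01 2, and with array weights, in a fit that did not converge, 9677. Leaving out single arrays gave 1 to 280 (196 higher, 84 lower without DAXX OE replicate 1). The study's fold and p thresholds gave 505 genes with 6 arrays, 960 with the block, 291 above the median level and 240 to 1781 with an array left out. The other eicosanoid genes had 0 calls with 6 arrays, 33 with array weights and 0 to 1 with an array left out. The median of the 10 genes, -0.033, was 0.15 over the 5 above the median level, 0.013 after cyclic loess, 0.025 with array weights and -0.030 to 0.036 with an array left out. The cause of these shifts was not tested, beyond the fewer genes or arrays in some fits. The deviations of same-numbered arrays from their group means had correlations over genes of -0.050, -0.30 and 0.17. No DSM OE array correlated best with the DAXX OE array of its number, and the replicate numbers were not used for pairing. These correlations cannot exclude pairing, because deviations within a small group constrain each other and DAXX OE replicate 1 differed from the other arrays. With the block, which cannot move the difference of 0.89, the SE for CYP2J2 was 0.14 and the gene was still called. The CYP2J2 signal is dim (0.37 to 1.49 above the background median, with 9 to 11 of the 23 background sets brighter), so the size of its change is uncertain. How well such a signal tracks the transcript was not tested.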
